A study of Mus musculus with 8 samples.

Results

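The question addressed was whether tying off the bile duct (bile duct ligation, BDL), which stops bile from draining, changed gene expression differently in 2 mesenchymal cell populations of mouse liver. The contrast used 8 of the 8 libraries of the series. It was the BDL response of Gli1+ peribiliary mesenchymal cells (log2 change from uninjured liver to liver 5 d after BDL) minus the BDL response of stellate cells. A negative difference therefore means that a gene moved less far up, or further down, in Gli1+ cells than in stellate cells. All animals were 8 weeks old, on a mixed background of C57BL/6 and SWR/J, and carried the genotype Gli1:CreER+/-; Ai9+/-, the stellate cell groups included. In such mice a tamoxifen-dependent Cre made from the Gli1 locus can switch on a red fluorescent reporter, so only cells in which Gli1 was active when Cre was induced become labelled. The sources used here do not give the dosing of the inducer, the sort gates or the number of animals behind a library. Each of the 4 groups (Gli1+ uninjured, Gli1+ BDL, stellate uninjured, stellate BDL) held 2 SMART-Seq2 libraries, in which whole cDNAs are copied by PCR before sequencing. Whether replicates are separate animals is not stated, and p-values therefore reflect the spread between libraries alone, which could be technical.

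Stellate cells lie between hepatocytes and the sinusoidal endothelium, store vitamin A as retinyl esters and turn into matrix-producing myofibroblasts after injury. Mesenchymal cells around the bile ducts, which include portal fibroblasts and cells that respond to Hedgehog ligands through GLI transcription factors, are a further source of myofibroblasts when bile flow is blocked. Expression was measured as CPM (reads of a gene scaled to a library total of 1000000) and tested on the log2(CPM + 1) scale, which understates changes of genes with few reads.

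Libraries held 11261775 to 19180370 reads, and 16446 genes were tested. Gli1 itself was listed at 14.9 and 7.59 CPM in uninjured Gli1+ libraries, 6.61 and 2.40 CPM after BDL, and at most 0.0584 CPM in the 4 stellate libraries. Lrat, which esterifies retinol in stellate cells, was between 1832 and 2784 CPM in the stellate libraries and between 5.16 and 35.9 CPM in the Gli1+ libraries. The Gli1+ libraries also held mesothelial markers (summed level 5227 to 12754 CPM, against 5.57 to 157 CPM in stellate libraries) and cholangiocyte markers (3420 to 16700 against 18.1 to 773 CPM). The first uninjured stellate library stood apart by its summed macrophage markers (13495 CPM, against 80.2 CPM in its partner), and the second BDL library of Gli1+ cells by its summed hepatocyte markers (22329 against 4034 CPM). In bulk samples such as these, fewer cells of a type and less RNA per cell cannot be told apart.

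The BDL responses differed past the threshold (limma-trend, Benjamini-Hochberg adjusted p under 0.05) at 2 of 16446 genes, 0.0122%. These were Plat and Slco2a1, which were near 0 in uninjured stellate cells, rose there after BDL and were at similar levels in all Gli1+ libraries. The number higher in Gli1+ than in stellate cells was 0 of 16446 (0%). At an unadjusted p under 0.05 there were 1230 genes, 455 higher and 775 lower. The median standard error (SE) of the difference was 0.96, and the middle 90% of differences ran from -2.33 to 2.03, with a median of -0.12. Of the 16446 differences, 9075 were below 0 and 7371 above 0. The median response was 0.12 in Gli1+ and 0.19 in stellate cells. Other tools gave other counts from the same reads: edgeR called 11 genes (0.0669%), all lower in Gli1+ cells, DESeq2 called 389 (2.56% of 15170), 316 lower and 73 higher, and limma-voom called 0 of 16446, with 1170 at an unadjusted p under 0.05.

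**Figure D1:**
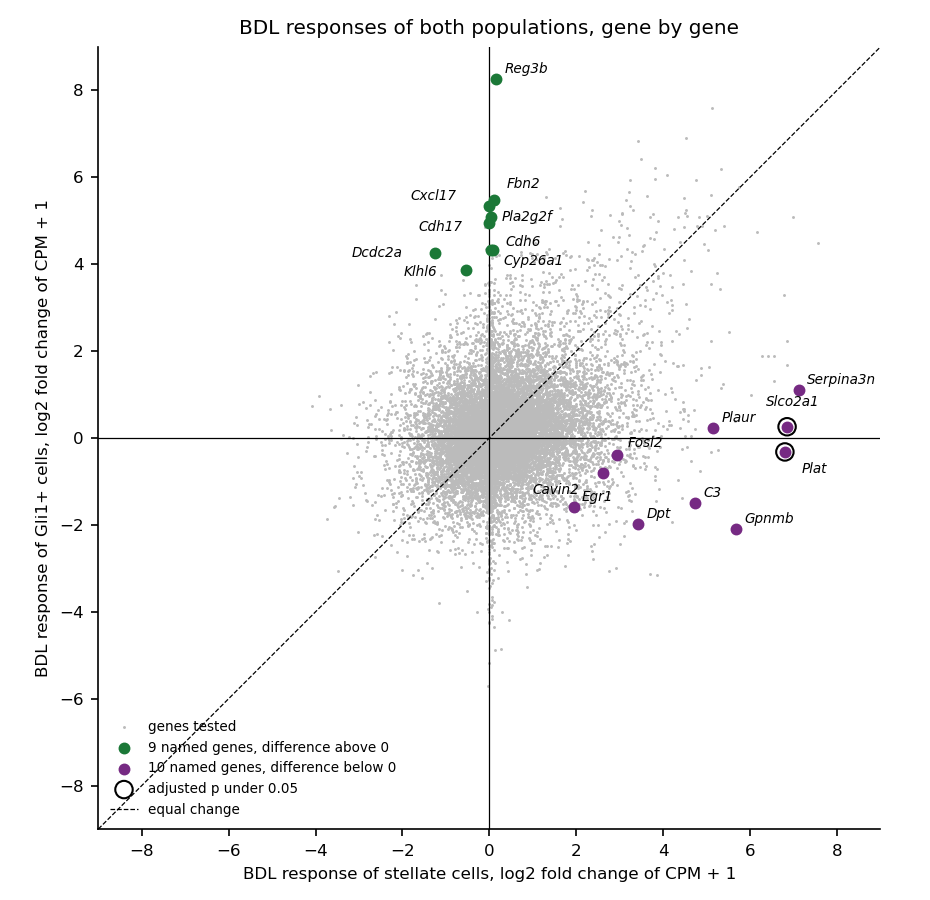
Log2 fold change of CPM + 1 after BDL in stellate cells (horizontal axis) and Gli1+ cells (vertical axis) for each of the 16446 genes tested, as grey points. Named genes with a difference below 0 (purple) lie to the right near or below the horizontal line, those with a difference above 0 (green) lie along the vertical line, and rings mark Plat and Slco2a1, which passed the test.

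Plat encodes tissue plasminogen activator, the serine protease that turns plasminogen into plasmin and so starts the breakdown of fibrin and of some matrix proteins. It lies on chromosome 8 (chr8:22757727-22782844, plus strand, GRCm38). In uninjured stellate cells it was listed at 0.0612 and 0.104 CPM, 3 reads in all, and after BDL at 85.9 and 167 CPM. The ratio of these levels was 1409 (exact 95% interval 482 to 6837, counting error only). Gli1+ libraries held 238 and 177 CPM uninjured and 195 and 138 CPM after BDL, so these groups overlapped. On the log2 scale Plat rose by 6.80 ± 0.45 (SE) in stellate cells (limma adjusted p = 0.00148), and the value in Gli1+ cells was -0.32 ± 0.45 (95% interval -1.35 to 0.71). The difference of responses was -7.12 ± 0.64 (95% interval -8.58 to -5.66, limma adjusted p = 0.0175). The gap between the populations, 7.57 in uninjured liver with Gli1+ cells higher, was 0.45 after BDL.

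Slco2a1 encodes the transporter that takes prostaglandins up into cells. It lies on chromosome 9 (chr9:102988712-103096002, plus strand, GRCm38). Uninjured stellate libraries held 0 and 0.156 CPM, 3 reads in all, and BDL stellate libraries 142 and 107 CPM, a ratio of 1513 (exact 95% interval 517 to 7342). Gli1+ libraries held 121 and 120 CPM uninjured and 122 and 171 CPM after BDL. All Gli1+ libraries thus lay in the range that stellate cells reached after BDL or above it. Slco2a1 rose by 6.85 ± 0.41 in stellate cells (limma adjusted p = 0.00121), while the value in Gli1+ cells was 0.26 ± 0.41 (95% interval -0.68 to 1.20). The difference was -6.59 ± 0.58 (95% interval -7.92 to -5.27, limma adjusted p = 0.0175), and the gap between populations went from 6.82 to 0.23.

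Both calls depended on settings. The number of genes called was 33 without the uninjured stellate library high in macrophage markers, 6 without its partner, and 0 without any 1 of the other libraries, the hepatocyte-rich one included. For Plat and Slco2a1, leaving out either uninjured stellate library kept both past the threshold (limma adjusted p 0.0124 and 0.0132 for Plat, 0.0124 and 0.0082 for Slco2a1), but without any of the other 6 libraries neither did (0.158 to 0.409 for Plat, 0.211 to 0.409 for Slco2a1). They also missed the threshold with a pseudocount of 5 (0.102 for both), with no filter on low values (0.151 and 0.108) and with limma-voom (0.475 for both), whereas edgeR (0.0115 and 0.0368) and DESeq2 (3.22e-18 and 5.15e-17) called both.

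The 250 bases before the RefSeq transcription start (GRCm38.p6, plus strand) are shown for Slco2a1, which passed the test, and for Plaur and Fosl2, described next. Among the named genes with a difference below 0, only the windows of Plaur and Fosl2 held a match to the letters searched. Their choice therefore says nothing on how often such genes hold a match. Letters in capitals match TGANTCA, the element bound by AP-1 factors (dimers of the FOS and JUN families, FOSL2 among them), or GCGNGGGCG, the element bound by EGR factors, searched on both strands. The windows are chr9:103008237-103008486 for Slco2a1, chr7:24462233-24462482 for Plaur and chr5:32136222-32136471 for Fosl2.
Slco2a1: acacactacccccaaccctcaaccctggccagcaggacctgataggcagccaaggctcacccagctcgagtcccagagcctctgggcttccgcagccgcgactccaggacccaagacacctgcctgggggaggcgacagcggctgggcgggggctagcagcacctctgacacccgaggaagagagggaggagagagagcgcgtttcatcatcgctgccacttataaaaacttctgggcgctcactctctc
Plaur: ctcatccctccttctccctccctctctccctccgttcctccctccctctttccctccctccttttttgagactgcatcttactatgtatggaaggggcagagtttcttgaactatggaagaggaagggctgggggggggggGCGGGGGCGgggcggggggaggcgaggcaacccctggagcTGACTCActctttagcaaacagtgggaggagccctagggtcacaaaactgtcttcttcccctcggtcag
Fosl2: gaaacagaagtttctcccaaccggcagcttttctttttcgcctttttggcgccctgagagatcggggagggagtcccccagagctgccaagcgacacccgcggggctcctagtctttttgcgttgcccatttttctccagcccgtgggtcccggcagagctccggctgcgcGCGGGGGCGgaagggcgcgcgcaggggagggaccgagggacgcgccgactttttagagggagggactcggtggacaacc
The Plaur window held an AP-1 match 69 bases and an EGR match 109 bases before the start, the Fosl2 window held an EGR match 79 bases before it, and the Slco2a1 window held neither. Of all 32851 RefSeq promoter windows of this length, 6.75% held the AP-1 letters and 4.7% the EGR letters. The EGR letters resemble GC-box sequence, so a match is a description of the letters and not a binding site. Among the 10 named genes with a difference below 0, 8 had a RefSeq window, of which 1 held an AP-1 and 2 an EGR match. The windows of Cavin2, Dpt, Gpnmb, Serpina3n and C3 held neither and are not shown. Among the 10 with a difference above 0, 6 had a window and 0 held either.

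Next in order were 8 further genes with a difference below 0 and the smallest p-values, none of which passed the test (limma adjusted p 0.0707 to 0.151). All 8 were higher in both BDL stellate libraries than in both uninjured ones, as were 27.4% of all genes tested, and 7 of them (all but Egr1) rose in stellate cells by limma. Plaur, the receptor that holds urokinase at the cell surface and so belongs to the same protease system as Plat, was at 0.122 and 0.0521 CPM in uninjured stellate cells and at 36.1 and 39.3 CPM after BDL. In Gli1+ cells it was at 93.1 and 97.1 CPM uninjured and 153 and 80.6 CPM after BDL, with overlap. Its difference was -4.93 ± 0.71 (limma adjusted p = 0.151, edgeR adjusted p = 0.0302). Serpina3n, a secreted serine protease inhibitor of the acute phase response, went from 0.122 and 0.730 CPM to 177 and 210 CPM in stellate cells and rose by 7.12 ± 0.55 (limma adjusted p = 0.0032). Its Gli1+ libraries held 116 and 381 CPM before and 406 and 505 CPM after BDL, higher after BDL in both, and the difference was -6.02 ± 0.77 (limma adjusted p = 0.146). Cavin2, a coat protein of the plasma membrane pits called caveolae, was at 11.2 and 12.9 CPM in uninjured and 90.8 and 69.3 CPM in BDL stellate cells, against 183 and 226 CPM and then 119 and 114 CPM in Gli1+ cells. It rose by 2.63 ± 0.34 in stellate cells (limma adjusted p = 0.0257), was lower in both BDL Gli1+ libraries (-0.80 ± 0.34), and its difference was -3.42 ± 0.48 (limma adjusted p = 0.151).

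Fosl2, an AP-1 subunit of the FOS family, and Egr1, a zinc finger factor induced within minutes by growth factors, both belong to the immediate early genes. Fosl2 was at 16.6 and 11 CPM in uninjured and 124 and 99.4 CPM in BDL stellate cells. In Gli1+ cells it was at 152 and 134 CPM and then at 113 and 104 CPM. The Gli1+ libraries sat near the level that stellate cells reached after BDL, and the difference was -3.34 ± 0.50 (limma adjusted p = 0.151). Egr1 was at 157 and 242 CPM in uninjured stellate cells and at 941 and 602 CPM after BDL, whereas Gli1+ cells held 568 and 737 CPM and then 173 and 263 CPM. Neither pair overlapped and the directions were opposite: 1.94 ± 0.38 in stellate cells (limma adjusted p = 0.104), -1.60 ± 0.38 in Gli1+ cells, and a difference of -3.54 ± 0.53 (limma adjusted p = 0.151).

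**Figure D2:**
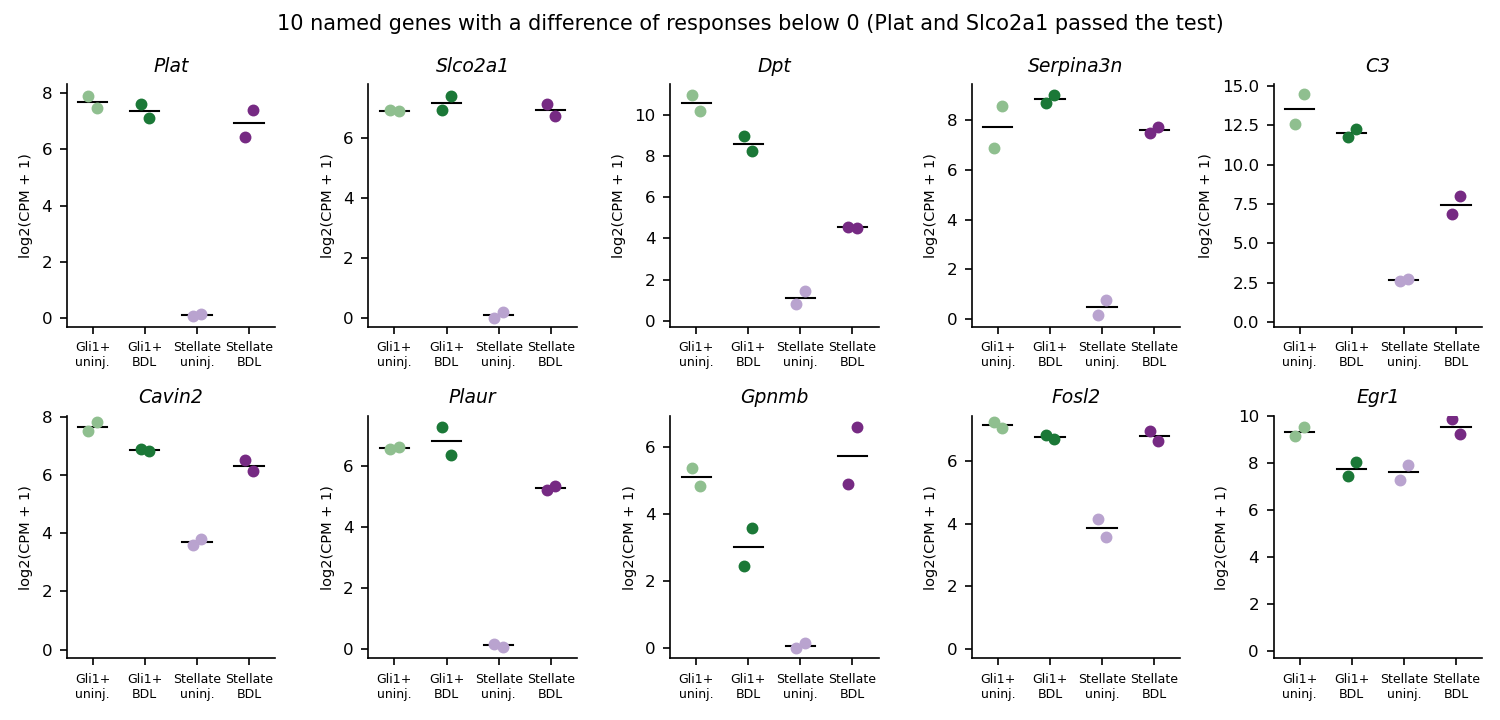
Log2(CPM + 1) of each library for the 10 named genes with a difference below 0, in Gli1+ cells (green) and stellate cells (purple), uninjured (light) and after BDL (dark), with lines at the mean of 2 libraries. Uninjured stellate libraries are the lowest group for every gene except Egr1, where they and the BDL Gli1+ libraries share the lower range.

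Responses in 1 population only were seen mostly on the stellate side, when a response means passing the test. In stellate cells 37 genes (0.225%) changed by limma, all of them higher after BDL. All 37 had a higher uninjured mean CPM in Gli1+ than in stellate cells. The share of all genes that did so was not counted, so this is not read as a trait of the 37. The change in Gli1+ cells was under 2-fold for 21 of the 37, a rise of 2-fold or more for 13, and a decrease of 2-fold or more for 3 (Gpnmb, C3 and Dpt, named here after their values were seen). In Gli1+ cells 0 genes passed by limma (0%; 1812 at an unadjusted p under 0.05), 0 by edgeR and 406 by DESeq2. For stellate cells edgeR called 62 and DESeq2 1006. Passing in 1 population and missing the threshold in the other is not a test of the difference. That test called 2 of the 37, Plat and Slco2a1. From the cell type marker lists, the 37 included the mesothelial markers Podxl, Krt18 and Krt8 and the cholangiocyte marker Spp1. They also held Cd93, Robo4, Mup20, Ambp and Hp, which are on none of these lists and were named after their values were seen. Endothelial markers, described below, had a median stellate response of 2.90, and 15 of 18 were higher in both BDL stellate libraries (27.4% of all genes tested). Summed hepatocyte markers were also higher after BDL in the stellate libraries (963 and 208 and then 2446 and 2466 CPM). The part of other cell types in the 37 was not tested.

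Counted from the libraries without a test, the sides were less unequal. With both BDL libraries above both uninjured ones at 2-fold or more in 1 population and a change under 2-fold in the other, there were 1644 genes for stellate cells and 1229 for Gli1+ cells. In the downward direction there were 535 genes for stellate cells and 849 for Gli1+ cells. Another 665 genes were higher and 164 lower in both populations by the same measure. Across the 16446 genes the responses of the populations, which share no library, correlated weakly (Pearson r = 0.27, Spearman rho = 0.22), and over the 9878 genes reaching a group mean of 20 CPM the Pearson r was 0.34. These are correlations across genes, which are not independent replicates.

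All 11 genes that edgeR called had 5 or fewer reads over the uninjured stellate libraries and were higher in uninjured Gli1+ cells. A gene with so few reads in stellate cells can hardly be lower in Gli1+ cells. The 11 were Plat, Slco2a1, Plaur, Podxl, Efna1, Stap2, Cxadr, Slit3, Bst1, Steap3 and AU021092, the last 8 of which were named after their values were seen. Podxl, a sialylated surface protein of endothelial and mesothelial cells, was at 0.0612 and 0.0521 CPM in uninjured and 104 and 75 CPM in BDL stellate cells, and at 30.7 and 13.0 and then 77.6 and 76.2 CPM in Gli1+ cells. It was higher after BDL in every library of both populations, with a difference of -4.52 ± 0.83. Efna1, a membrane-bound ligand of Eph receptors, went from 1 read in uninjured stellate cells to 19.2 and 26.3 CPM, while Gli1+ libraries ranged from 50.7 to 84.7 CPM with overlap. Its stellate ratio was 786 (exact 95% interval 140 to 31078) and its difference was -4.47 ± 0.81 (limma adjusted p = 0.292). Cxadr, a cell adhesion protein used by coxsackievirus and adenovirus as a receptor, and Slit3, a secreted guidance cue, stayed far below Gli1+ levels after BDL: 6.83 and 12.9 CPM for Cxadr and 6.31 and 8.92 CPM for Slit3 in stellate cells, against 198 to 287 and 162 to 257 CPM in the Gli1+ libraries.

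Markers of other cell types moved with this stellate side. The 18 endothelial markers had a median difference of -2.23 (17 of 18 below 0), with medians of 0.52 in Gli1+ and 2.90 in stellate cells. Of them 15 were higher in both BDL stellate libraries than in both uninjured ones (27.4% of all genes tested), and their summed level was 3814 and 4383 CPM uninjured and 7264 and 4955 CPM after BDL. Most of the uninjured level lay in Eng and Ehd3, which overlapped between conditions in stellate cells. Eng was at 1570 and 2312 and then 1811 and 1533 CPM, and Ehd3 at 1367 and 1867 and then 1779 and 856 CPM. Lyve1, a hyaluronan receptor of sinusoidal and lymphatic endothelium, was by contrast at 0.673 and 0.0521 CPM and then at 95.6 and 37.0 CPM. The summed mesothelial markers went from 5.57 and 11.1 to 153 and 157 CPM in stellate cells, but Msln, which encodes mesothelin and defines mesothelium, stayed at 0.730 to 1.02 CPM. Most of the summed level after BDL lay in Podxl and in the keratins Krt18 and Krt8, named after their values were seen. No marker of either list was at 0 in every library, and the part of endothelial or other cells in the differences was not tested.

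On the other side, no gene with a response higher in Gli1+ than in stellate cells passed the test, and the 10 with the smallest p-values had limma adjusted p of 0.151 to 0.341. For 7 of them no library of the other 3 groups was above 2.40 CPM. Reg3b, a secreted lectin with antibacterial activity made by stressed epithelia, was at 0.355 and 0.114 CPM in uninjured and 673 and 209 CPM in BDL Gli1+ libraries, and at most 0.425 CPM in the stellate libraries. Its difference was 8.10 ± 1.18 (limma adjusted p = 0.151). Its close paralogs make its reads uncertain.

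Pla2g2f, a secreted phospholipase, was listed at 0 in both uninjured Gli1+ libraries and at 31.2 and 34.6 CPM after BDL, at least 318-fold higher against a floor of 3 reads over the group. The stellate libraries held 1 read of it in all, and the difference was 5.04 ± 0.81 (limma adjusted p = 0.199, edgeR 0.9999, DESeq2 0.0790). Cxcl17, a chemokine of mucosal epithelia, had no read in any uninjured or stellate library and was at 81.9 and 18.9 CPM in BDL Gli1+ cells, at least 439-fold higher. With no stellate reads, its difference of 5.34 ± 1.08 is its Gli1+ change alone (limma adjusted p = 0.341, edgeR 0.9999, DESeq2 0.634). Cdh6 and Cdh17, cadherins that join neighbouring cells, were at 30.7 and 11.9 CPM and at 63.2 and 15.2 CPM in BDL Gli1+ cells (edgeR adjusted p = 0.9999 for both). Cyp26a1, which degrades retinoic acid, was listed at 0 in both uninjured Gli1+ libraries and at 11.5 and 31.0 CPM after BDL, at least 218-fold higher, and had 3 reads in the 4 stellate libraries together. Fbn2, a microfibril protein of elastic tissue, was at 2.40 and 1.03 CPM and then at 66.6 and 201 CPM in Gli1+ cells, with 7 reads in the stellate libraries together, and its difference was 5.38 ± 1.16.

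Dcdc2a and Klhl6, by contrast, were expressed in uninjured stellate cells, and the Gli1+ libraries were closer to that level after BDL. Dcdc2a, a microtubule-binding protein of primary cilia, was at 0.888 and 0.0571 CPM in uninjured and 31.0 and 21.8 CPM in BDL Gli1+ cells, against 119 and 124 and then 44.1 and 57.5 CPM in stellate cells. Klhl6, an adaptor of a ubiquitin ligase, was at 0 and 0.285 and then 16.1 and 14.9 CPM in Gli1+ cells, and at 54.9 and 47.1 and then 28.3 and 42.8 CPM in stellate cells. Its difference was 4.40 ± 0.87 (limma adjusted p = 0.341).

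**Figure D3:**
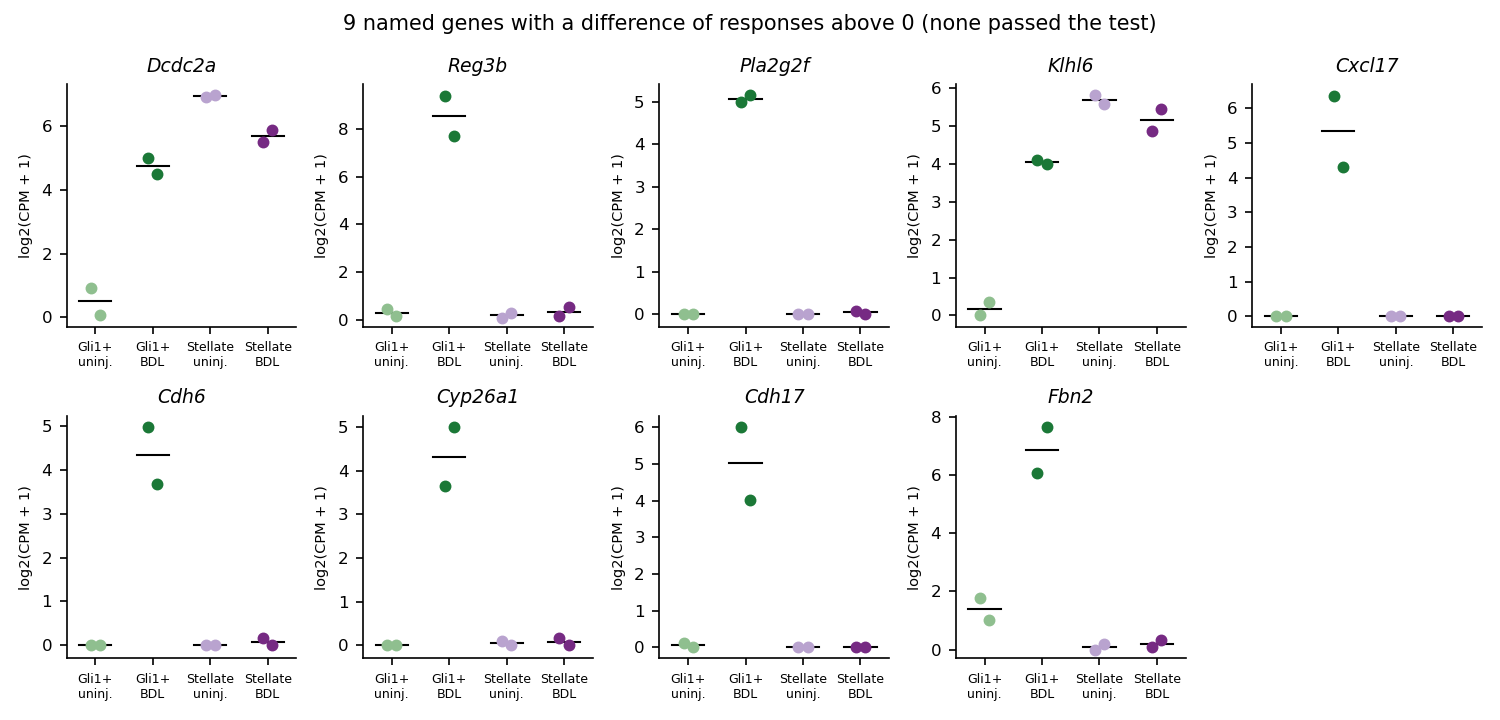
Log2(CPM + 1) of each library for 9 named genes with a difference above 0, in Gli1+ cells (green) and stellate cells (purple), uninjured (light) and after BDL (dark), with lines at the mean of 2 libraries. For 7 genes the BDL Gli1+ libraries stand well above all others, none of which exceeds 2.40 CPM, while Dcdc2a and Klhl6 were also expressed in stellate cells.

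Cholangiocyte markers were higher after BDL in both populations, and most had a difference above 0. The summed level of 17 cholangiocyte markers was 4755 and 3420 CPM in uninjured and 16700 and 8103 CPM in BDL Gli1+ libraries. Of the 17, 8 were higher in both BDL Gli1+ libraries than in both uninjured ones (25.1% of all genes tested). In stellate cells the sum went from 27.9 and 18.1 to 201 and 773 CPM, most of it Spp1 after BDL (177 and 743 CPM). There 7 of the 17 were higher in both BDL libraries (27.4% of all genes tested). The median difference of the list was 0.98, with 13 of 17 above 0 and none called. Cldn4, an epithelial tight junction protein, was at 21.8 and 3.14 and then 136 and 91.2 CPM in Gli1+ cells and at 0 in all stellate libraries. Krt19, the keratin that marks bile duct epithelium, was at 1127 and 1848 and then 2559 and 1023 CPM in Gli1+ cells, with overlap. Spp1, the secreted phosphoprotein osteopontin and a member of the same list, rose by 6.79 ± 0.95 in stellate cells (limma adjusted p = 0.0406). It was 3.29 ± 0.95 higher in BDL Gli1+ cells and had a difference of -3.50 ± 1.35, opposite in sign to the list median. Spp1 was at 2140 and 259 and then 10259 and 5167 CPM in Gli1+ libraries, and so made up most of the summed level there after BDL. The part of duct cells in the values of either population was not tested.

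Opposite directions past the test were found at 0 genes by limma, 3 by edgeR and 147 by DESeq2. Without a test, 217 genes (1.32%) had groups that did not overlap, in opposite directions and at 2-fold or more in both populations. Of these 61 (0.371%) were higher in Gli1+ and lower in stellate cells after BDL, and 156 (0.949%) were lower in Gli1+ and higher in stellate cells.

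Among the 61, the largest difference at a group mean of 20 CPM or more was that of Dcdc2a (5.51 ± 0.77, limma adjusted p = 0.151), which was 4.26 ± 0.54 higher in Gli1+ and 1.25 lower in stellate cells after BDL (log2 change -1.25 ± 0.54). Pcx, pyruvate carboxylase of the mitochondrial matrix, was at 0.355 and 8.96 and then 21 and 79.7 CPM in Gli1+ cells, and at 47.0 and 15.9 and then 9.52 and 6.37 CPM in stellate cells. Nfatc1, a calcineurin-dependent transcription factor, was at 10.3 and 0.228 and then 39.2 and 37.4 CPM in Gli1+ cells, and at 57.5 and 37.2 and then 22.2 and 19.8 CPM in stellate cells. After BDL, Pcx and Nfatc1 were thus higher in both Gli1+ libraries than in both stellate libraries, the reverse of their order by mean in uninjured liver. P2ry1, a receptor for ADP, was at 0.0888 and 0 and then 9.51 and 9.22 CPM in Gli1+ cells, and at 46.8 and 46.4 and then 16.2 and 31.0 CPM in stellate cells. Frem1, an extracellular matrix protein of basement membranes, had a difference of 3.86 ± 1.09, and the limma adjusted p of these 4 genes was 0.341 to 0.454.

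Among the 156, Gpnmb had the largest difference of all genes below 0 (-7.77 ± 1.16, limma adjusted p = 0.151). It encodes a transmembrane glycoprotein of lysosomes and phagocytes. Its level was 40.8 and 27.8 CPM in uninjured and 4.43 and 11.1 CPM in BDL Gli1+ cells, and 0 and 0.104 CPM in uninjured and 28.8 and 95.8 CPM in BDL stellate cells, where it rose by 5.68 ± 0.82 (limma adjusted p = 0.0439). The order of the populations was therefore turned, from a gap of 5.04 to one of -2.73. C3, the central protein of the complement cascade, was at 6036 and 23184 and then 3504 and 5032 CPM in Gli1+ cells. In stellate cells it was at 5.20 and 5.79 and then 116 and 254 CPM, a rise of 4.74 ± 0.61 (limma adjusted p = 0.0257), and the difference was -6.23 ± 0.87. Unlike Gpnmb, C3 kept its order, with Gli1+ cells higher after BDL by 4.60.

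Cyp2f2, a cytochrome P450 of periportal hepatocytes with close paralogs, was at 58.4 and 13.9 and then 2.02 and 2.75 CPM in Gli1+ cells, and at 0.0612 and 0 and then 8.82 and 21.8 CPM in stellate cells (difference -7.01 ± 1.30). The summed hepatocyte markers were 1900 and 484 and then 4034 and 22329 CPM in Gli1+ cells, opposite to Cyp2f2, and 963 and 208 and then 2446 and 2466 CPM in stellate cells, the same direction as Cyp2f2. Of the 20 members, 15 were higher in both BDL Gli1+ libraries (25.1% of all genes) and 15 in both BDL stellate libraries (27.4%). Their part in the Cyp2f2 values was not tested. H2-Q1, a class I histocompatibility gene whose paralogs make its reads uncertain, was at 17.1 and 24.2 and then 4.59 and 0.299 CPM in Gli1+ cells and at 0.245 and 0.209 and then 29.1 and 1.87 CPM in stellate cells, with a wide spread in both BDL groups. The limma adjusted p was 0.292 for Cyp2f2 and 0.447 for H2-Q1.

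**Figure D4:**
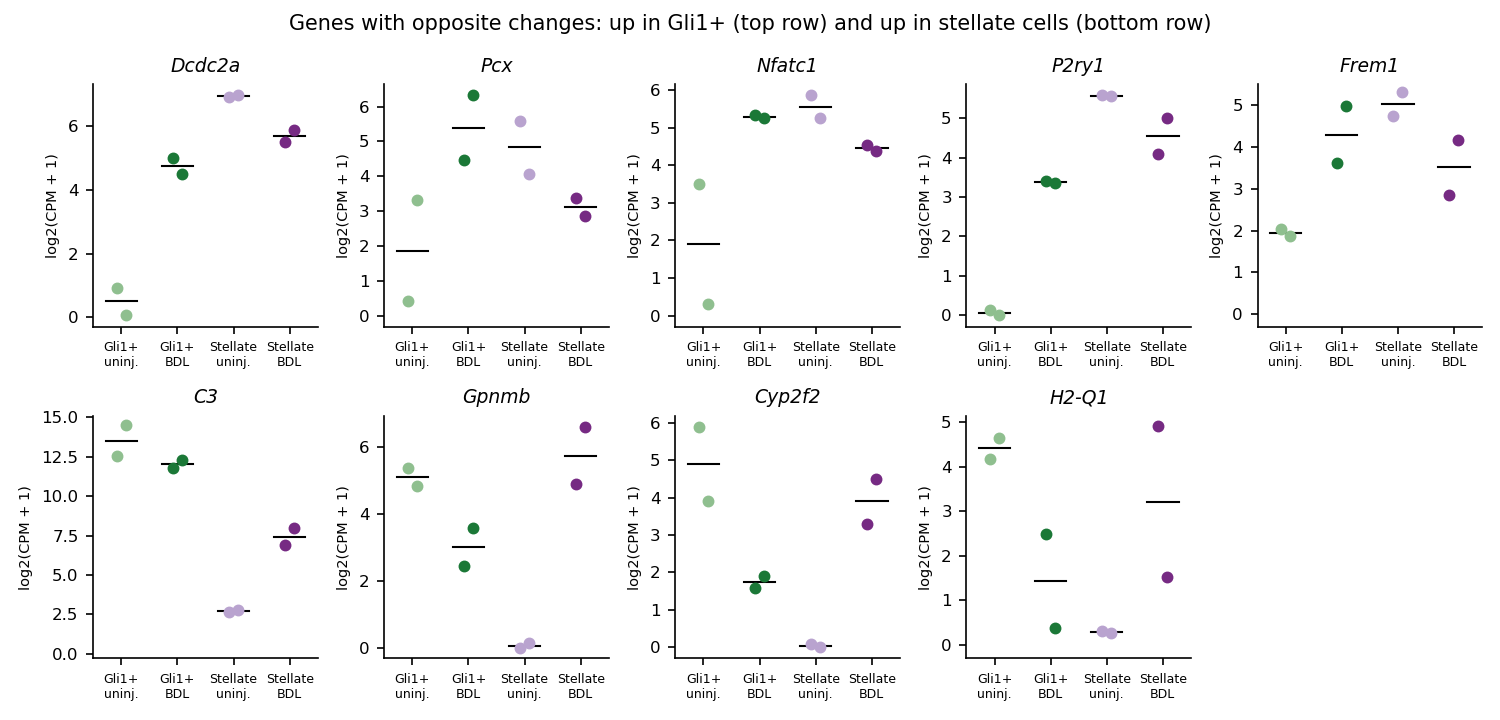
Log2(CPM + 1) of each library for 5 genes higher in Gli1+ (top) and 4 higher in stellate cells (bottom) after BDL, among those of largest difference with opposite, non-overlapping changes, in Gli1+ cells (green) and stellate cells (purple), uninjured (light) and after BDL (dark), with lines at the mean of 2 libraries. Gpnmb, Cyp2f2, Pcx, Nfatc1, H2-Q1 and Frem1 exchange the order of the populations by mean after BDL, whereas C3 stays higher in Gli1+ cells and Dcdc2a and P2ry1 stay higher in stellate cells.

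Gene lists were described by counts and medians, and none of the genes in the 31 lists passed the test of the difference. Portal and adventitial fibroblast markers had a median difference of -2.05 (21 of 24 below 0), against -0.12 over all genes (9075 of 16446 below 0). Their median response was -1.28 in Gli1+ and 0.84 in stellate cells, and 4 of 24 (Dpt, Pi16, Cd34 and Gas6) had opposite changes without overlap, against 1.32% of all genes. Dpt, dermatopontin, which binds decorin and collagen fibrils, was at 2024 and 1192 and then 503 and 304 CPM in Gli1+ cells, and at 0.734 and 1.72 and then 22.9 and 21.7 CPM in stellate cells. It rose by 3.42 ± 0.43 in stellate cells (limma adjusted p = 0.0252), and its difference was -5.41 ± 0.61 (limma adjusted p = 0.0707, edgeR 0.0516). Gsn, the actin-severing protein gelsolin, was lower after BDL in all libraries of both populations: 14377 and 5285 and then 708 and 551 CPM in Gli1+ cells, and 513 and 469 and then 202 and 242 CPM in stellate cells. Igfbp6, which binds insulin-like growth factor 2, was at 2660 and 2607 and then 773 and 626 CPM in Gli1+ cells and never above 3.57 CPM in stellate cells.

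Stellate cell markers had a median difference of -0.14 (13 of 24 below 0), close to that of all genes, and medians of -0.65 in Gli1+ and -0.40 in stellate cells. Lrat had a difference of -0.91 ± 0.86, and Ecm1, a secreted matrix protein abundant in stellate cells, one of 0.57 ± 0.58. Bmp5, a bone morphogenetic protein, was the exception within this list. It was listed at 0 in uninjured Gli1+ cells and at 1.45 and 6.77 CPM after BDL, at least 43.2-fold higher, while stellate cells went from 264 and 415 to 173 and 125 CPM.

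Among contractile genes, the program of the myofibroblast, the median difference was -0.74 (17 of 21 below 0). Acta2, smooth muscle actin, was at 507 and 777 and then 761 and 840 CPM in Gli1+ cells, with overlap, and at 11.1 and 16.1 and then 128 and 348 CPM in stellate cells. It rose by 3.88 ± 0.48 in stellate cells (limma adjusted p = 0.0252), and the difference was -3.53 ± 0.67 (limma adjusted p = 0.312). Myh11, smooth muscle myosin, was at 140 and 107 and then 64.3 and 67.9 CPM in Gli1+ cells and at 4.34 and 19.7 and then 38.3 and 70.6 CPM in stellate cells (difference -3.21 ± 0.90).

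The list of fibrillar collagens and crosslinking genes also held other matrix genes, such as Dcn, Lum, Fn1, Sparc and Tnc. Its median difference was -0.55 (23 of 30 below 0), with medians of 0.39 in Gli1+ and 0.92 in stellate cells. Col1a1, a chain of the main scar collagen, was higher after BDL in every library of both populations, 2821 and 2166 and then 4945 and 5050 CPM in Gli1+ cells, and 187 and 345 and then 989 and 1835 CPM in stellate cells. Its difference was -1.39 ± 0.60 (limma adjusted p = 0.663). Fmod, a small proteoglycan on collagen fibrils, and Loxl4, a crosslinking enzyme, had opposite changes without overlap. Basement membrane genes had a median difference of -0.48, and Col4a1 responded alike in sign, 1.59 ± 0.30 in Gli1+ and 1.18 ± 0.30 in stellate cells, a difference of 0.41 ± 0.43.

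Metalloproteinases and their inhibitors had a median difference of -1.38 (16 of 20 below 0). Timp1, an inhibitor of matrix-degrading proteases, was at 69.4 and 340 and then 779 and 689 CPM in Gli1+ cells and at 0.183 and 2.09 and then 122 and 397 CPM in stellate cells. It rose by 6.86 ± 0.82 in stellate cells (limma adjusted p = 0.0236), was 2.24 ± 0.82 higher in Gli1+ cells, and its difference was -4.61 ± 1.16 (limma adjusted p = 0.403). Metallothioneins and acute phase genes had medians of 2.95 in Gli1+ and 4.04 in stellate cells. Of 20 members, 14 were higher and 2 lower without overlap in BDL Gli1+ libraries (25.1% and 16.2% of all genes), and 19 were higher in BDL stellate libraries (27.4% of all genes). Hepatocyte markers, of the cell type that makes most acute phase proteins, had medians of 4.16 in Gli1+ and 3.16 in stellate cells, and their part in this list was not tested. Complement genes had medians of opposite sign, -0.94 in Gli1+ and 0.41 in stellate cells. Among them Serping1, the inhibitor of the C1 protease, was at 3443 and 4031 and then 1424 and 1494 CPM in Gli1+ cells, against 1878 and 2748 and then 3838 and 2882 CPM in stellate cells (difference -1.90 ± 0.51), while C7 and Cd55 had opposite changes without overlap.

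In the Hedgehog pathway, in which ligands such as Sonic hedgehog act through PTCH1 and SMO on GLI factors, the median difference was -0.96 (16 of 21 below 0). Shh, the ligand, was at 46.0 and 16.4 and then 0.484 and 1.68 CPM in Gli1+ cells and at most 0.0850 CPM in stellate cells. Ptch1, receptor and target, overlapped in both populations, at 29.3 to 56.6 CPM in Gli1+ and 28 to 81 CPM in stellate cells. Smo, the signal transducer, was at 106 and 63.0 and then 32.0 and 50.2 CPM in Gli1+ cells and at 0.489 and 4.74 and then 14.9 and 19.5 CPM in stellate cells, opposite and without overlap. Cdon, a coreceptor, showed the same pattern as Smo. Gli1 itself had a difference of -1.24 (limma adjusted p = 0.848).

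For other ligand families, TGF-beta pathway genes had a median difference of -0.72 and BMP and Notch genes one of -1.07. Bmp6, a ligand that controls hepcidin, had no read in uninjured stellate cells and was at 14.0 and 6.03 CPM after BDL, at least 127-fold higher, while Gli1+ cells went from 10.03 and 30.6 to 7.5 and 5.93 CPM. Wnt ligands and modulators had a median difference of -0.78. Within that list Wif1, a secreted Wnt inhibitor, was at 0 and 1.43 and then 24.3 and 22.9 CPM in Gli1+ cells and had no read in stellate cells (difference 3.98 ± 0.93, limma adjusted p = 0.363). Frzb, a secreted Wnt antagonist of the same kind, was at 2.40 and 0.228 and then 16.6 and 83 CPM in Gli1+ cells and at 234 and 228 and then 404 and 525 CPM in stellate cells, higher after BDL in both populations.

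Immediate early and heat shock genes had a median difference of -1.72 (21 of 25 below 0), with medians of -0.88 in Gli1+ and 0.78 in stellate cells. Fosb and Egr1 had opposite changes without overlap. Junb was at 310 and 717 and then 208 and 242 CPM in Gli1+ cells and at 520 and 492 and then 1288 and 587 CPM in stellate cells. Its difference was -1.85 ± 0.68 (limma adjusted p = 0.569). The share of reads from mitochondrial genes, 2.21% to 5.72% in Gli1+ and 0.808% to 2.73% in stellate libraries, overlapped between conditions in Gli1+ cells and was higher after BDL in both stellate libraries.

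Few lists had a positive median difference. Cholesterol synthesis genes had one of 0.88 (17 of 22 above 0), with medians of 1.57 in Gli1+ and 0.54 in stellate cells, and 18 of 22 were higher in both BDL Gli1+ libraries (25.1% of all genes) and 12 of 22 in both BDL stellate libraries (27.4%). Hmgcs1, which condenses acetyl units at the start of the pathway, was at 86.2 and 56.0 and then 270 and 381 CPM in Gli1+ cells and at 46.4 and 31.6 and then 56.0 and 55.3 CPM in stellate cells (difference 1.66 ± 0.54, limma adjusted p = 0.512). Hepatocytes also make cholesterol, and the summed hepatocyte markers were higher after BDL in Gli1+ cells (1900 and 484 and then 4034 and 22329 CPM) and in stellate cells (963 and 208 and then 2446 and 2466 CPM). Their part in this list was not tested.

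Other lists had medians of similar size in both populations. Cell cycle genes had medians of 1.70 in Gli1+ and 2.03 in stellate cells, with 20 and 21 of 30 members higher in both BDL libraries, against 25.1% and 27.4% of all genes, and a median difference of -0.23. Interferon-stimulated genes had medians of -0.90 and -0.73, and 13 and 14 of 23 members were lower in both BDL libraries, against 16.2% and 12.2% of all genes. Rtp4, an interferon-induced chaperone, was at 104 and 76.2 and then 42.5 and 32.4 CPM in Gli1+ cells and at 535 and 428 and then 299 and 259 CPM in stellate cells, a difference of -0.46 ± 0.46. Antigen presentation genes had medians of -0.94 and -0.76. Unfolded protein response genes had medians of -0.02 and 0.15, and PDGF ligands and receptors medians of 0.29 and 0.32.

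**Figure D5:**
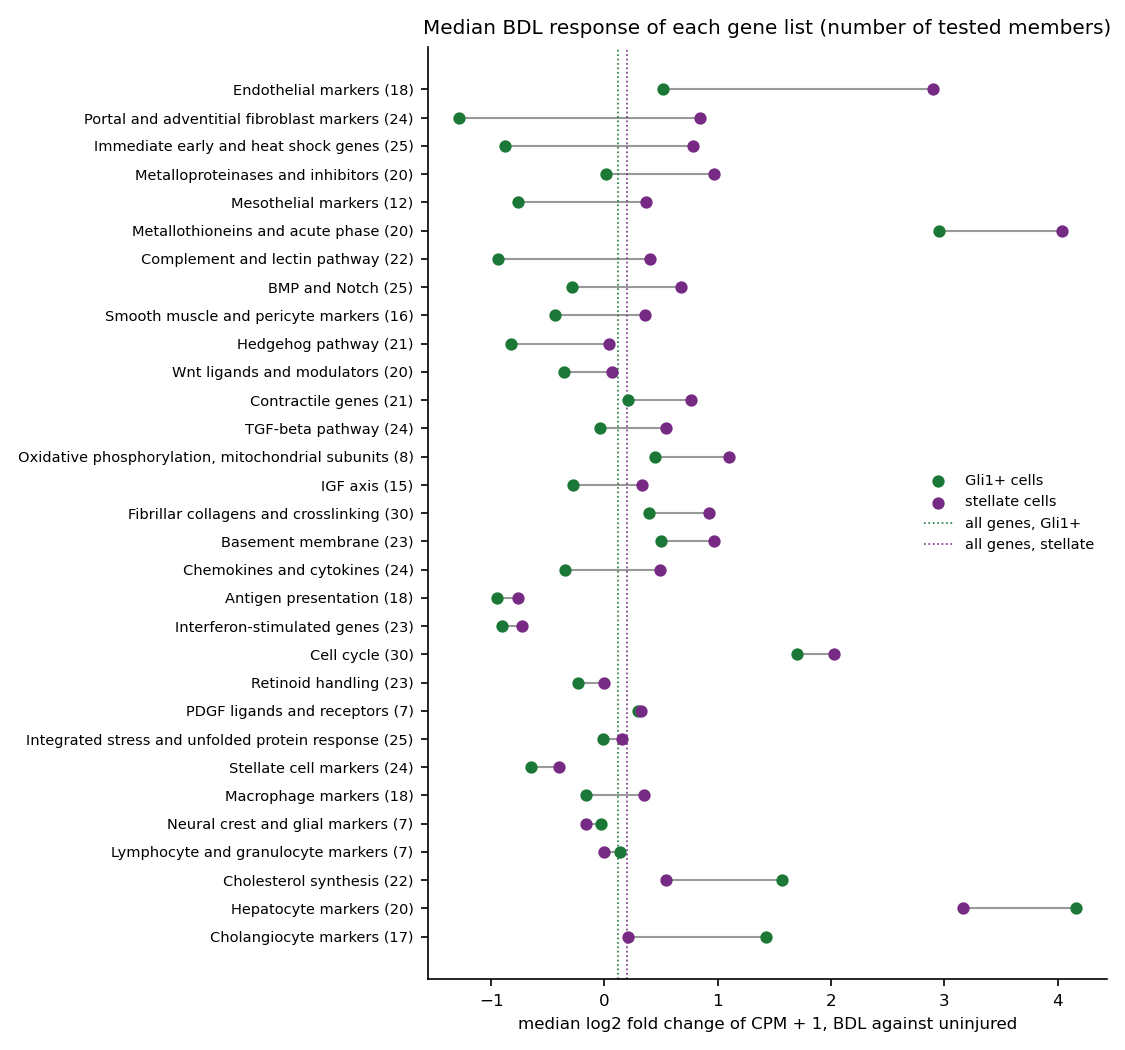
Median log2 fold change of CPM + 1 after BDL of each of the 31 gene lists in Gli1+ cells (green) and stellate cells (purple), with the number of tested members in brackets and dotted lines at the median of all genes. Lists are ordered by the median of the members' differences, from endothelial and portal fibroblast markers (-2.23 and -2.05) to cholangiocyte markers (0.98).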

How the data were processed

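Per the file headers, the authors deposited 1 column of normalized counts (CPM) per library. Per the submitters' processing notes, which give no roles, the tools were FastQC, STAR 2.5.2b, featureCounts and DESeq2 and the build was mm10. The annotation, strandedness and handling of reads shared by paralogs were not given in the sources used here. Each deposited CPM value was a whole multiple of 1 read in its library (100% of values within 0.1 read), so whole reads were recovered for the count tests. Of 30395 identifiers, 30233 matched GENCODE vM21 by gene number.

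Genes reaching 1 CPM in 2 or more libraries were fitted as log2(CPM + 1) with limma-trend (limma 3.58.1, R 4.3.3), 4 group means and 4 residual degrees of freedom, and p-values were adjusted by Benjamini-Hochberg over all 16446 genes. Alternatives were edgeR 4.0.16, DESeq2 1.42.0, limma-voom, other scalings, pseudocounts of 0.5 and 5, other filters, a replicate block, and leaving out each library. TMM and median-of-ratios scaling shifted the median difference by 0.04 and 0.06. Intervals and floors (3 reads) cover counting error only.

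Named genes were, per direction, up to 10 of largest called difference, filled by smallest p where fewer passed, with a group mean of at least 20 CPM; 5 of largest difference among opposite changes; 2 of highest CPM per list without called members; and Gli1, Lrat, Col1a1, Acta2, Des, Thy1, Eln, Pdgfrb and Ptch1. The list members of largest difference, and those with opposite changes, were added after their values were seen. Of the genes this rule named, 2 are not reported here. Members and lists were chosen with earlier results of these data known. In simulated counts of 15617 genes, changes were placed only at genes with a mean of at least 10 CPM. There limma-trend called 0 of 100 differences of 4-fold and 24 of 100 of 16-fold, and 7 of 31 calls were unchanged genes.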

Additional observations from a re-analysis of the deposited data

Results flagged for a closer look

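The BDL responses of Plat and Slco2a1 differed between Gli1+ and stellate cells by a test of the difference itself (limma-trend, adjusted p = 0.0175 for both). The difference was -7.12 for Plat and -6.59 for Slco2a1 on the log2(CPM + 1) scale. Each gene had 3 reads over both uninjured stellate libraries.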

How the results depend on the processing

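Of 16446 genes, the 2 calls of the difference became 0 with a pseudocount of 5, with no filter beyond 1 read, with limma-voom and with the replicate block, 11 with edgeR, 389 with DESeq2, and 0 to 33 when 1 library was left out. The calls with a stellate response alone (2) became 0 under the same 4 settings, 7 with edgeR, 149 with DESeq2 and 0 to 18 with a library left out. Called opposite directions (0) became 1 at a filter of 10 CPM, 3 with edgeR, 147 with DESeq2 and 0 to 13 with a library left out, and calls with a Gli1+ response alone (0) became 31 with DESeq2. The 217 opposite genes without overlap became 75 with a pseudocount of 5, 140 at 10 CPM, 483 and 14 at log2 changes of 0.5 and 2, and 298 to 483 with a library left out, where 1 library alone can hardly overlap. Deviations of same-numbered libraries correlated at -0.112 to 0.112 across genes. Such values cannot settle whether same-numbered libraries share an animal or a batch, which the labels do not give. With the block, limma's adjusted p was 0.0594 for Plat and Slco2a1. Signs turned at genes with differences near 0 or a wide spread. Gas1 was -0.10 and Krt19 0.01011 with a pseudocount of 5, and Rspo3 -0.0034 with edgeR. Id2 was 0.0164 with TMM, 0.0425 with median-of-ratios scaling, 0.0521 with limma-voom, 0.16 with edgeR and 0.19 with DESeq2. Lyz2 was 1.30 and C1qb 1.51 with edgeR, and 1.35 and 1.55 with DESeq2. With a library left out, the ranges were Abcc9 -0.88 to 0.38, Alb -0.70 to 2.08, Apoa2 -0.70 to 2.31, C1qb -3.93 to 2.64, Ccl2 -3.04 to 1.52, Cd3g -1.25 to 2.82, Cxcl12 -0.12 to 1.03, Des -0.54 to 0.20, Dusp1 -1.41 to 0.0130, Ehd3 -1.51 to 0.66, Eng -0.19 to 1.12, Gas1 -0.78 to 0.81, Hspa5 -0.41 to 1.07, Id2 -1.07 to 0.97, Kcnj8 -0.17 to 1.47, Krt19 -0.90 to 0.42, Lyz2 -4.82 to 2.31, Msln -1.47 to 0.25, Pdgfc -0.0220 to 3.37, Pdgfrb -0.79 to 0.38, Prnp -0.20 to 0.61, Ptch1 -0.29 to 1.21, Rspo3 -0.75 to 0.85, Saa3 -4.50 to 1.87, Timp3 -0.36 to 0.50 and Trbc2 -0.15 to 2.16. The causes were not tested. In simulated counts with 2 libraries per group, limma-trend called 0 of 100 differences of 4-fold at genes with a mean of at least 10 CPM. Of its 31 calls there, 7 were unchanged genes, a larger share than the threshold of 0.05 is meant to allow. The other tools were not tried on simulated counts.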
